A study of Mus musculus with 8 samples.

Results

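The type I interferon response was followed in the mouse brain through 9 genes that interferon switches on or that carry its signal: Stat2, Irf9, Irf7, Ifit1, Ifit3, Oasl2, Bst2, Ifi27 and Usp18. They were chosen by name, as the rows of the deposited gene tables that bear those symbols, and make up 9 of the 54532 genes in those tables. All 9 passed the filter on low counts, which kept 17182 genes for testing. No gene of the 9 passed an edgeR adjusted p of 0.05 in any of the 7 comparisons of genotype and stress, and 16 of 17 type I interferon ligand genes had 0 counts in every library.

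Type I interferons bind a receptor built from Ifnar1 and Ifnar2. The kinases Jak1 and Tyk2 then phosphorylate Stat2, which joins Irf9 in the complex ISGF3, and this complex enters the nucleus and binds interferon-stimulated response elements in the promoters of antiviral genes. In the brain the response is known from infection and from amyloid models, where microglia and other cells turn on genes such as Ifit3, Bst2 and Irf7.

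The study asked how chronic stress acts on brain injury and neutrophil extracellular traps in cerebral amyloid angiopathy (CAA), the deposition of amyloid in the walls of brain vessels. RNA sequencing libraries were made from total RNA of brains of PBS-perfused mice. The 4 groups are WT mice given a mock treatment (WT mock), WT mice under chronic restraint stress (WT stress), CAA mice given the mock treatment (CAA mock) and CAA mice under the same stress (CAA stress), with 2 libraries each. The CAA strain or transgene and its promoter, the ages, the sexes and the duration of stress were not stated in the labels, and the design text does not make clear which part of each brain was taken.

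The libraries held 17275201 to 18894657 counted reads, so that 3 counts correspond to 0.161 to 0.175 CPM (reads of a gene scaled to library size). Neuronal marker genes, 5 in all with Rbfox3 and Snap25 among them, summed to 3610 to 4967 CPM, so the defining markers of the labelled tissue were present. Xist and Y-linked counts mark WT mock 1 and CAA stress 1 as female and the other 6 libraries as male. WT mock 1 and CAA mock 2 stood apart with 229 and 207 CPM summed over 12 striatal genes, against 858 to 1674 CPM in the other 6. Microglial marker genes (8 genes) summed to 230 to 379 CPM. Endothelial marker genes (8 genes) summed to 117 to 180 CPM and were lowest in CAA mock 1 and CAA stress 2. WT stress 2 and CAA stress 1 stood apart with 522 and 428 CPM summed over 8 choroid plexus genes, against 12.4 to 196 CPM elsewhere. Lymphocyte genes summed to 0 to 11 counts in a library. In such bulk RNA, fewer cells of a type and less RNA per cell cannot be told apart.

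The promoters of the 9 genes were searched for the element that ISGF3 binds. RefSeq promoters of the GRCm38.p6 assembly, 250 bases before to 50 bases after a gene's start, were on hand for 7 of the 9 genes and were read on both strands for GAAANNGAAA, the core of the interferon-stimulated response element. It was found in Ifit1, Ifit3, Bst2 and Stat2. Of 32851 promoters of the same length, 3.443% held at least 1 match and 0.2253% held 2 or more. Ifit1, Ifit3 and Bst2 each held 2, and Stat2 held 1. The 2 matches in Bst2 overlap each other. No match was found in the windows of Irf9, Irf7 and Oasl2. A match is a run of letters and says nothing of binding. The stretches of 100 bases around the matches follow, 5′ to 3′ on the strand of the gene, because they carry the sequence through which ISGF3 is known to act. Capitals mark the element in either orientation.

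Ifit1, chr19:34640755-34640854, plus strand: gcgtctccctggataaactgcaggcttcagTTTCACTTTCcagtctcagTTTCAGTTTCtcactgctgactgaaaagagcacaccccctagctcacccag
Ifit3, chr19:34583343-34583442, plus strand: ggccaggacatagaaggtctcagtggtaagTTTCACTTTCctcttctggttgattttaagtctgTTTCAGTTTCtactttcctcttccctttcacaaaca
Bst2, chr8:71537533-71537632, minus strand: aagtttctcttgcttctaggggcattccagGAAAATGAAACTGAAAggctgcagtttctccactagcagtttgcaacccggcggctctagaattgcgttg
Stat2, chr10:128270248-128270347, plus strand: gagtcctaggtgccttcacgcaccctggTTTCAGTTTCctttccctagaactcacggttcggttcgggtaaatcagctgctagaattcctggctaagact

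In Ifit1 and Ifit3 both matches run against the direction of transcription. They lie 104 to 95 and 85 to 76 bases before the start of Ifit1, and 156 to 147 and 122 to 113 bases before that of Ifit3. The match of Stat2 also runs against transcription and lies 222 to 213 bases before the start. Those of Bst2 run with transcription, at 130 to 121 and 124 to 115 bases before the start. All these positions count from the start in the RefSeq promoter entry. It can differ from the gene coordinates given below, which for Stat2 begin after the end of the searched window.

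Expression levels can be compared between genes only per length, and the deposited FPKM (fragments scaled to gene length and library size) serve for that. The library size in them matched the size factors of DESeq2 rather than the total of counted reads. The gene length is the union of the exons of all transcripts of a gene. It covers 100% of the span of Irf7 and 83.4% of that of Irf9, against 11.2% to 41.7% for the other genes. The order of the genes by FPKM depends on this length, and other lengths were not tested. Ifi27, which codes for a small hydrophobic interferon-induced membrane protein, was the most abundant of the 9 with 15.4 ± 1.28 FPKM (SD, n = 8 libraries). Ifit3 followed with 4.28 ± 0.69 FPKM, then Bst2 with 2.93 ± 0.89 FPKM and Stat2 with 2.04 ± 0.27 FPKM. Ifi27 lay above Ifit3 in all 8 libraries and their ranges did not meet, whereas those of Ifit3 and Bst2, and of Bst2 and Stat2, overlapped. Ifit1 at 1.09 ± 0.37 FPKM and Irf9 at 1.06 ± 0.098 FPKM could not be ordered, with Ifit1 above Irf9 in 5 of 8 libraries. The lowest levels were those of Irf7 at 0.41 ± 0.20 FPKM, Oasl2 at 0.29 ± 0.11 FPKM and Usp18 at 0.26 ± 0.13 FPKM, whose ranges overlapped from one to the next. The range of Stat2 lay wholly above that of Ifit1, and the range of Irf9 above that of Irf7.

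**Figure D1:**
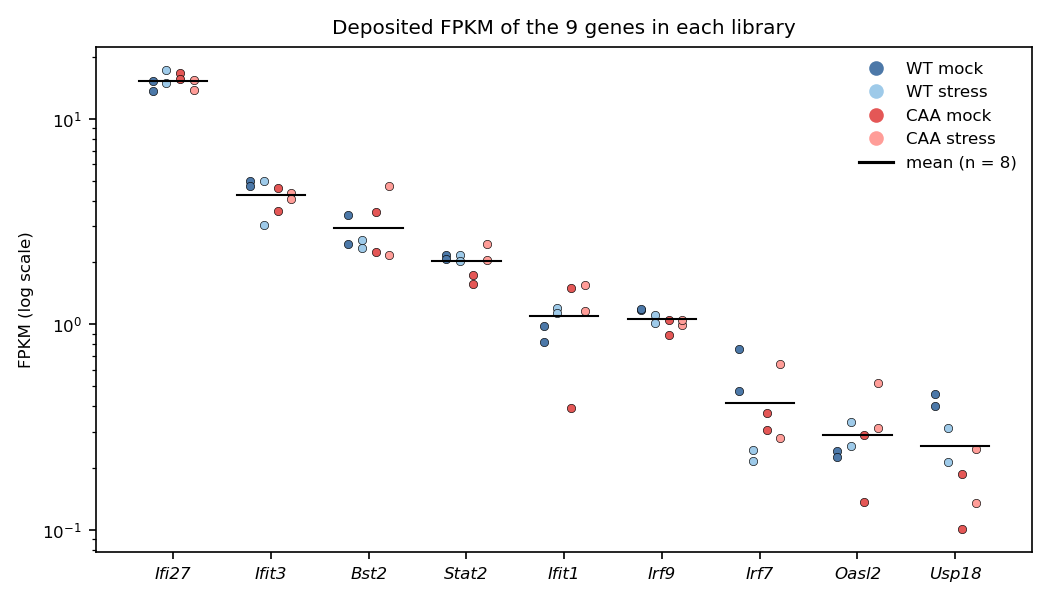
Deposited FPKM (log axis) of the 9 genes, 1 point per library coloured by group, with a black bar at the mean of the 8 libraries. Ifi27 sits between 13.7 and 17.3 FPKM, apart from all others, and the 3 genes on the right sit under 1 FPKM in every library.

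The subunits of ISGF3 are taken first. Stat2 (ENSMUSG00000040033, mm10 chr10:128270559-128292849, plus strand), the signal transducer particular to type I and type III interferon, lay at 13.1 and 12.4 CPM in the WT mock libraries (replicates 1 and 2). It lay at 12.97 and 12.2 CPM in WT stress, 10.5 and 9.41 CPM in CAA mock, and 12.3 and 14.7 CPM in CAA stress. Both CAA mock libraries were thus the lowest of the 8, and the CAA stress libraries lay above them without overlap. The log2 fold change of Stat2 with stress in CAA was 0.44 ± 0.21 (SE), a fold of 1.36 with a 95% interval of 0.992 to 1.86, and did not pass (edgeR adjusted p = 0.696). In WT its log2 fold change with stress was -0.02 ± 0.21. The difference between those effects was 0.46 ± 0.29 on the log2 scale (edgeR adjusted p = 0.995).

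Irf9 (ENSMUSG00000002325, chr14:55603571-55610030, plus strand), the DNA-binding partner in ISGF3, was among the steadiest of the 9. Its CPM were 6.40 and 6.46 in WT mock, 5.53 and 6.01 in WT stress, 4.85 and 5.69 in CAA mock, and 5.40 and 5.73 in CAA stress. The highest library was 1.33 times the lowest. Its coefficient of variation over the 8 libraries, 9.24%, was below the 9.79% that counting alone gives at this depth. Averaged over mock and stress, Irf9 differed between CAA and WT by -0.17 ± 0.18 on the log2 scale, and averaged over genotype, stress and mock differed by -0.04 ± 0.18 (edgeR adjusted p = 0.807 and 0.980). The gene shares 123 bases with Rnf31 on the same strand, where reads of the 2 genes cannot be told apart.

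Irf7 (ENSMUSG00000025498, chr7:141262706-141266481, minus strand), the transcription factor that amplifies interferon production, was after Usp18 the most variable of the 9 between libraries, with a coefficient of variation of 48.2%. Its CPM were 2.91 and 1.80 in WT mock, 0.821 and 0.937 in WT stress, 1.17 and 1.41 in CAA mock, and 2.45 and 1.07 in CAA stress. These rest on 54, 32, 15, 17, 20, 25, 45 and 20 reads in the same order. Both WT stress libraries lay below both WT mock libraries, whereas both CAA stress libraries lay above both WT stress libraries, and the CAA mock and CAA stress libraries overlapped.

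The log2 fold change of Irf7 with stress was -1.41 ± 0.53 in WT (95% interval -2.57 to -0.26, unadjusted p = 0.0206, edgeR adjusted p = 0.9999) and 0.45 ± 0.52 in CAA. The difference between those effects, the interaction, was 1.86 ± 0.74 (95% interval 0.25 to 3.47, unadjusted p = 0.0274, edgeR adjusted p = 0.995). Averaged over mock and stress, CAA and WT differed in Irf7 by 0.07 ± 0.36 on the log2 scale, with an interval of -0.73 to 0.86. The arithmetic means, 1.61 ± 0.964 CPM over the WT and 1.53 ± 0.635 CPM over the CAA libraries (SD, n = 4), have the opposite order.

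The fitted differences in Irf7 changed when the 2 female libraries were given a term or left out. The 2 female libraries, WT mock 1 and CAA stress 1, were its 2 highest at 2.91 and 2.45 CPM, against 0.821 to 1.80 CPM in the 6 males. Irf7 was the 1 gene of the 9 with both females above all males, an order seen in 2.22% of all tested genes. With a term for sex the log2 fold change with stress in WT was -0.90 ± 0.52 and the interaction 0.78 ± 0.82, and in the male libraries alone they were -1.03 ± 0.67 and 0.77 ± 0.97. Without WT mock 1 they were -1.03 ± 0.65 and 1.48 ± 0.85, and without CAA stress 1 the interaction was 1.16. Irf7 in CAA stress against WT stress, 0.997 ± 0.53 on the log2 scale with all libraries, came to 0.43 with the sex term and 0.30 in males. Each female library is 1 of 2 in its group. WT mock 1 was also striatum-poor (229 CPM) and CAA stress 1 rich in choroid plexus genes (428 CPM), so sex and tissue content coincide in them. Without the 2 striatum-poor libraries the stress effect in WT was -1.03 and the interaction 1.62. The part of sex or tissue content in these differences was not tested further. Irf7 overlaps Phrf1, on the opposite strand, by 45 bases.

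**Figure D2:**
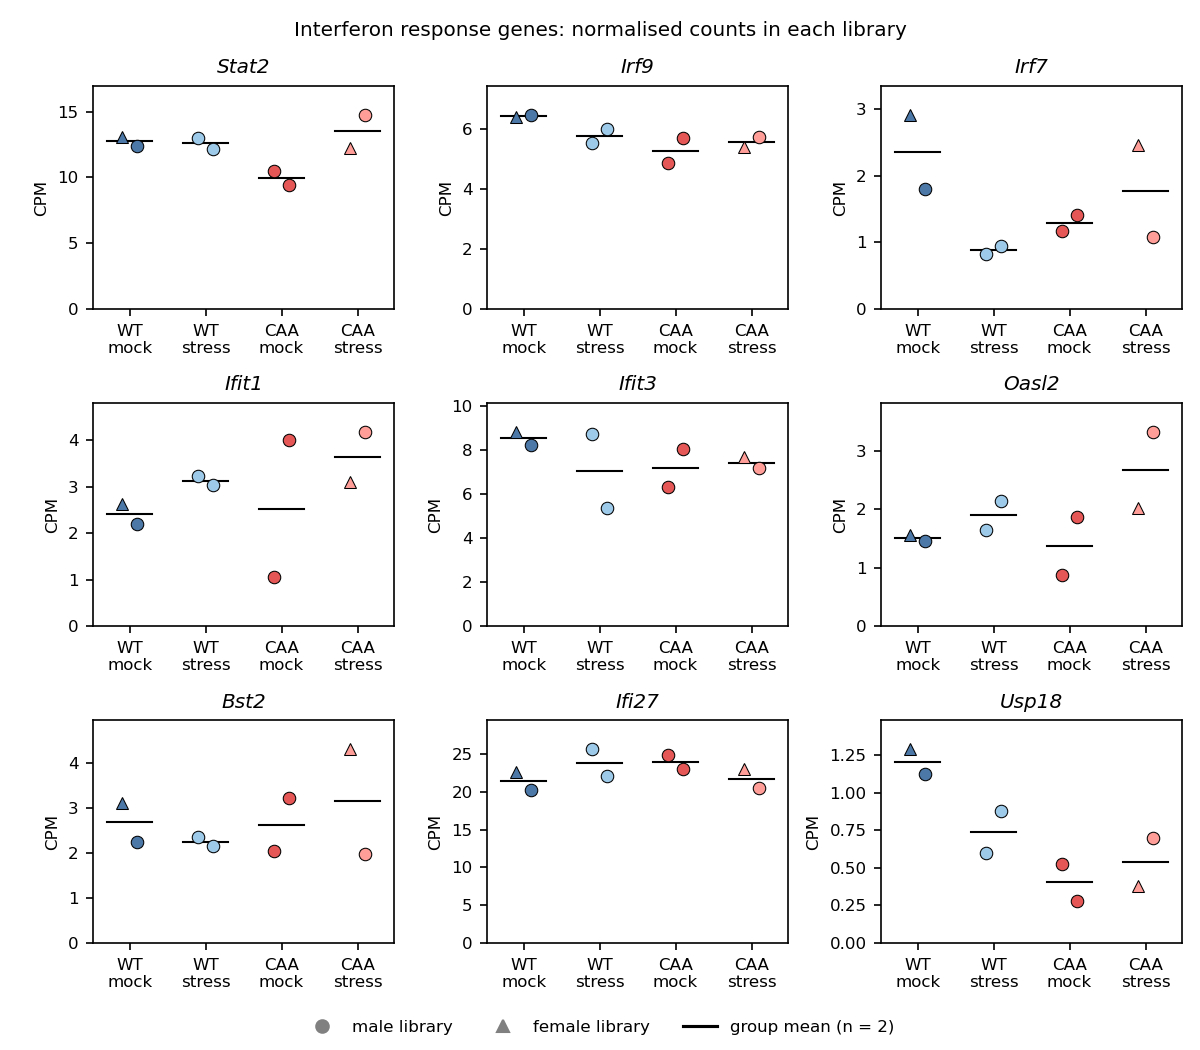
Normalised counts (CPM) of each gene in each of the 8 libraries by group (circles male, triangles female by sex-linked counts), with a bar at the mean of the 2 libraries and each axis from 0. The 2 triangles of Irf7 sit above its circles, Stat2 is lowest in CAA mock, and the 4 CAA libraries of Usp18 lie between 0.282 and 0.696 CPM.

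The antiviral effectors form the largest role among the 9. Ifit1 (ENSMUSG00000034459, chr19:34640871-34650009, plus strand) codes for a protein that binds foreign RNA caps. It lay at 2.64 and 2.19 CPM in WT mock, 3.23 and 3.03 CPM in WT stress, 1.05 and 3.999 CPM in CAA mock, and 3.11 and 4.18 CPM in CAA stress. The WT stress libraries lay above the WT mock libraries, and the CAA mock libraries differed from each other by 18 reads against 71. Within-group differences made up 71.2% of the variance of its log2 CPM. The stress effect averaged over genotype was 0.45 ± 0.36 on the log2 scale, an interval of -0.35 to 1.25 (edgeR adjusted p = 0.920). The averaged CAA effect on Ifit1, 0.14 ± 0.36, turned to -0.49 without CAA mock 2.

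Ifit3 (ENSMUSG00000074896, chr19:34583531-34588731, plus strand), a partner of Ifit1 in the same gene cluster, had 8.82 and 8.25 CPM in WT mock, 8.76 and 5.35 in WT stress, 6.31 and 8.055 in CAA mock, and 7.69 and 7.18 in CAA stress. One low library, WT stress 2, set the lower end, and the groups compared overlapped except that both CAA mock libraries lay below both WT mock libraries. Its averaged log2 differences were -0.09 ± 0.20 for CAA and -0.11 ± 0.20 for stress. The near-identical copy Ifit3b held 40 to 99 reads in a library, against 97 to 164 for Ifit3, so the split of reads between the copies is uncertain.

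Oasl2 (ENSMUSG00000029561, chr5:114896936-114912234, plus strand), a member of the oligoadenylate synthetase-like family, was measured at 1.56 and 1.46 CPM in WT mock, 1.64 and 2.15 CPM in WT stress, 0.876 and 1.86 CPM in CAA mock, and 2.02 and 3.32 CPM in CAA stress. In both genotypes the stress libraries lay above the mock libraries without overlap, where 26.7% of all tested genes did not overlap in WT and 37.3% in CAA. In WT the gap was 30 reads in WT stress 1 against 29 in WT mock 1. The log2 fold change of Oasl2 with stress was 0.33 ± 0.48 in WT, 0.96 ± 0.48 in CAA and 0.64 ± 0.34 on average. None passed (edgeR adjusted p = 0.9999, 0.696 and 0.920), and the averaged fold of 1.56 had an interval of 0.932 to 2.62. Without CAA mock 1 or CAA stress 2 the value in CAA came to 0.52 or 0.55, and without CAA mock 2 to 1.60.

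Bst2 (ENSMUSG00000046718, chr8:71534255-71537456, minus strand) codes for tetherin, which holds budding virus at the cell surface. Its CPM were 3.12 and 2.25 in WT mock, 2.35 and 2.15 in WT stress, 2.04 and 3.21 in CAA mock, and 4.31 and 1.98 in CAA stress. The highest and the lowest library of the series were both in CAA stress, and within-group differences made up 86.7% of its log2 variance. The averaged log2 difference of Bst2 between CAA and WT was 0.23 ± 0.31, and -0.10 without CAA stress 1.

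Ifi27 (ENSMUSG00000064215, chr12:103434211-103440239, plus strand) gave the tightest limits. It lay at 22.7 and 20.2 CPM in WT mock, 25.7 and 22.0 in WT stress, 24.9 and 23.1 in CAA mock, and 23.0 and 20.5 in CAA stress, with 360 to 469 reads in a library. The highest library was 1.27 times the lowest. The averaged log2 difference was 0.01 ± 0.13 for CAA (95% interval -0.26 to 0.29) and 0.01 ± 0.13 for stress (-0.27 to 0.28), so that intervals for either factor span folds from 0.828 to 1.22. For no other gene of the 9 were the intervals as narrow.

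Usp18 (ENSMUSG00000030107, chr6:121245906-121270917, plus strand) removes the ubiquitin-like protein ISG15 from its targets and restrains signalling at Ifnar2. It lay at 1.29 and 1.12 CPM in WT mock, 0.602 and 0.882 CPM in WT stress, 0.526 and 0.282 CPM in CAA mock, and 0.382 and 0.696 CPM in CAA stress. The counts behind these were 24, 20, 11, 16, 9, 5, 7 and 13. Both CAA mock libraries lay below all 4 WT libraries, but CAA stress 2 lay above WT stress 1. Averaged over mock and stress, the log2 fold change of Usp18 in CAA was -1.01 ± 0.46, a fold of 0.496 with an interval of 0.248 to 0.995 (unadjusted p = 0.0485, edgeR adjusted p = 0.593). Between CAA mock and WT mock it was -1.57 ± 0.65 (unadjusted p = 0.0340, edgeR adjusted p = 0.998). At 5 to 24 reads, counting alone gives a coefficient of variation of 27.6%, against the 48.9% observed over the libraries. The averaged value ranged from -1.26 to -0.82 when each library was left out in turn and was -0.77 in the male libraries alone. Usp18 lies across Gm44148, on the opposite strand, which had 0 reads.

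Set side by side, the 9 genes split evenly around 0 in both averaged comparisons. Averaged over mock and stress, 5 lay higher and 4 lower in CAA than in WT, with a median log2 difference of 0.013 against 0.0011 over all tested genes. Averaged over genotype, 5 lay higher and 4 lower under stress, with a median of 0.0020 against 0.0034. The background of calls was as low. An edgeR adjusted p under 0.05 was reached by 0.0116% of tested genes for CAA averaged and for both CAA comparisons within a treatment, and by 0% for stress averaged, for stress in WT, for stress in CAA and for the interaction. DESeq2 also called 0 of the 9 genes in all 7 comparisons, but gave no adjusted p for some of them, among which Usp18 for CAA averaged.

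At an unadjusted p under 0.05, Usp18 was the 1 gene of the 9 for CAA averaged, where 8.38% of all genes reached that level, and again for CAA under mock (4% of all genes). Irf7 was the 1 gene for stress in WT (1.59% of all genes) and for the interaction (3.46%). None of the 9 reached it for stress in CAA (6.94% of all genes), CAA under stress (8.22%) or stress averaged (3.82%). These counts changed with the processing. With a sex term Irf7 did not reach that level for stress in WT or the interaction, nor did Usp18 for CAA averaged. Usp18 also missed it for CAA averaged with the replicate block, with DESeq2 and with no filter, and for CAA under mock with DESeq2. With DESeq2's size factors in edgeR and with limma at either pseudocount, Irf7 and Usp18 reached it in the same comparisons as before. Settings that leave 1 library in a group, such as males alone, are not counted here, but effects moved in them too. Without the striatum-poor libraries, Irf7 was -1.03 for stress in WT and Usp18 -1.08 for CAA under mock (-1.41 and -1.57 with all). Oasl2 was then 1.60 for stress in CAA (0.96 with all).

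Counts of genes whose libraries do not overlap are read in the same way. The 2 stressed and 2 mock WT libraries did not overlap for 5 of the 9 genes (Irf9, Irf7 and Usp18 lower, Ifit1 and Oasl2 higher), where 26.7% of all genes did not. In CAA the stress libraries stood apart for 3 (Stat2 and Oasl2 higher, Ifi27 lower), against 37.3% of all genes. CAA mock and WT mock stood apart for 6 (Ifi27 higher, and Stat2, Irf9, Irf7, Ifit3 and Usp18 lower), against 32.9%. CAA stress and WT stress stood apart for Irf7 alone, against 39.8%. With 4 libraries against 4, none of the 9 separated by genotype (4.77% of all genes did) or by stress (1.83%).

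**Figure D3:**
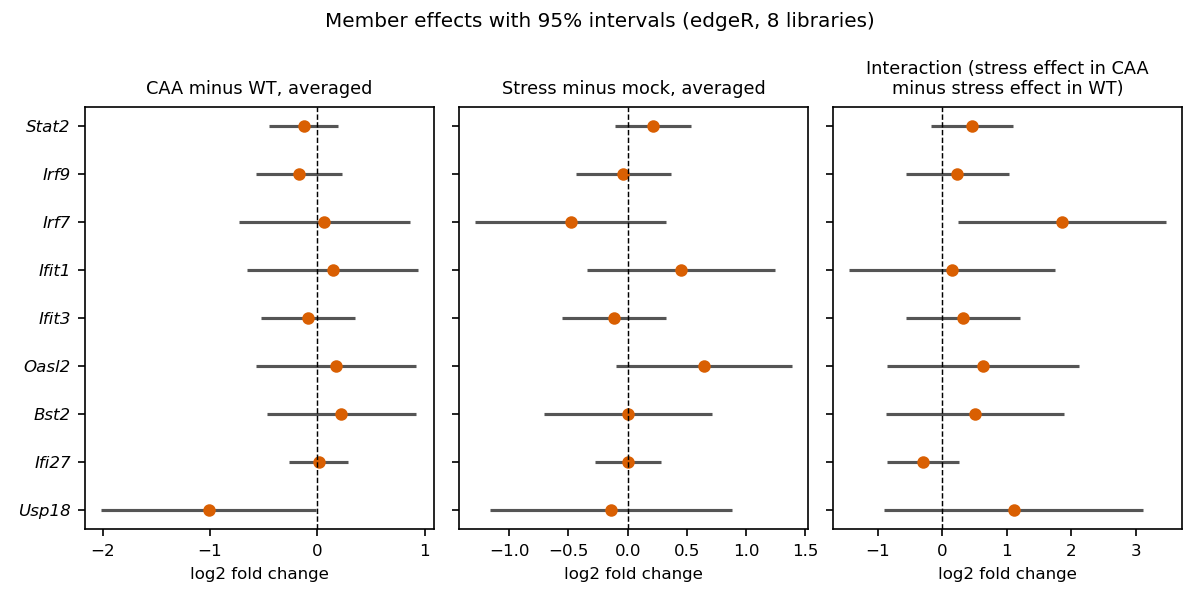
Log2 fold changes of the 9 genes (points) with 95% intervals (bars) for CAA against WT, stress against mock and their interaction, from edgeR fits over the 8 libraries. Most intervals include 0, apart from those of Usp18 for CAA (-2.01 to -0.01) and of Irf7 for the interaction (0.25 to 3.47), neither of which passes the adjusted threshold.

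The direction of the stress effect differed by genotype in the fitted values without passing a test. Under stress 3 of the 9 genes lay higher in WT and 8 of 9 in CAA, where 49.6% and 51.4% of all tested genes lay higher. The interaction was positive for 8 of the 9 genes, all but Ifi27 at -0.30 ± 0.25, with a median of 0.46 against 0.0041 over all genes. Positive values range from 0.15 for Ifit1 to 1.86 for Irf7. These values share libraries: the same 2 CAA mock and 2 WT mock libraries enter every gene. CAA mock 1 was the lowest of the 8 for 3 of the genes (Irf9, Ifit1 and Oasl2) and above a gene's own mean for Ifi27 alone. Without CAA mock 1 the median interaction fell to 0.19 and the median stress effect in CAA, 0.42 with all libraries, to -0.03. In that library the endothelial markers summed to 117 CPM, the lowest of the 8, and the microglial markers to 379 CPM, the highest. The part of these cell types in the result was not tested.

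Fitted values of cell markers also had a common sign in several lists. Averaged over genotype, all 8 microglial markers lay lower under stress, with a median log2 difference of -0.24. Their sums were 230 and 265 CPM in WT stress 2 and CAA stress 2. In WT stress 1 and CAA stress 1 they were 336 CPM, within the 303 to 379 CPM of mock. All 8 endothelial markers lay lower in CAA, with a median of -0.17. Their sums were 117 and 121 CPM in CAA mock 1 and CAA stress 2. In CAA mock 2 and CAA stress 1 they were 173 and 170 CPM, within the 153 to 180 CPM of WT. Larger shifts stood in other lists. With stress, 7 of 8 choroid plexus genes (median 1.36) and 12 of 12 striatal genes (0.66) lay higher, and 5 of 5 astrocyte genes (-0.37) and 5 of 5 oligodendrocyte genes (-0.33) lay lower. Higher with stress were also 6 of 6 ependymal genes (0.44), 5 of 6 fibroblast genes (0.42) and 5 of 5 border macrophage genes (0.31). The same held for the 2 neutrophil genes tested (0.39). The striatum-poor libraries, WT mock 1 and CAA mock 2, are both mock libraries. The choroid-rich ones, WT stress 2 and CAA stress 1, are both stressed. In CAA, 5 of 5 oligodendrocyte genes (0.45) and 6 of 6 fibroblast genes (0.78) lay higher. So did 6 of 6 ependymal genes (0.47), 6 of 8 choroid plexus genes (0.34) and the 2 neutrophil genes tested (1.20), while 10 of 12 striatal genes lay lower (-0.35). No gene of these lists passed an edgeR adjusted p of 0.05 in either averaged comparison. The part of these cell types in the levels of the 9 genes was not tested.

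The 9 genes were compared in pairs across the 8 libraries, without a background from pairs of other genes. Of their 36 pairs, 23 had a positive and 13 a negative Pearson correlation of log2 CPM, with a median of 0.106, and in exact permutation tests over 40320 orders 2 reached an unadjusted p of 0.05 and 0 an adjusted one. Ifit1 and Oasl2 were the most alike (r = 0.881, exact p = 0.00394, adjusted p = 0.142, Spearman's rho = 0.786, exact p = 0.0279, adjusted p = 0.335, n = 8), and r was 0.667 without CAA mock 1 and WT mock 2. Irf7 and Bst2 followed (r = 0.715, exact p = 0.0455, adjusted p = 0.621, rho = 0.548, exact p = 0.171, adjusted p = 0.873), but without the 2 female libraries r was 0.290. The highest rank correlation was that of Irf9 and Usp18 (rho = 0.810, exact p = 0.0218, adjusted p = 0.335, r = 0.698, exact p = 0.0517, adjusted p = 0.621). The strongest negative one was that of Irf9 and Ifi27 (rho = -0.79, exact p = 0.0279, adjusted p = 0.335, r = -0.65, exact p = 0.0764, adjusted p = 0.687), where r was -0.31 without CAA mock 1 and WT mock 2. The members' median within-group share of variance was 44.0%, against 55.1% for all tested genes.

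A mean profile of the 9 genes, each scaled to the same spread, was highest in WT mock 1 and lowest in CAA mock 1. Of 13422 other genes at 1 CPM or more, those with the highest correlation to it over the 8 libraries were Per3 (r = 0.967), Sp100 (0.965), Ccl27a (0.961), Peg13 (0.953), Kcnj9 (0.944), Camkk1 (0.938), Kazald1 (0.930) and Dcbld2 (0.929). Sp100, a nuclear body protein, is itself an interferon-induced gene, and Per3 is a gene of the circadian clock. With 8 libraries and so many genes such values describe these libraries only.

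The rest of the pathway was described from lists of its parts, given in order from ligand to restraint. Among 17 type I interferon ligand genes, including Ifnb1, 16 had 0 counts in all 8 libraries, which allows up to 3 counts in a library. The exception was Ifne, with 2 counts in WT stress 1. None could be tested.

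The receptor and its kinases, 4 genes in all, were tested and none passed in either averaged comparison. The mean of Jak1 was 173 ± 13.7 CPM over the WT libraries and 163 ± 9.66 CPM over the CAA libraries (SD, n = 4, as in the values that follow), and that of Ifnar1 was 35.3 ± 3.77 and 33.4 ± 2.49 CPM. Tyk2, the kinase bound to Ifnar1, had the smallest p with stress, 7.89 ± 0.938 CPM in mock and 10.7 ± 1.55 CPM under stress, and differed by 0.43 ± 0.17 on the log2 scale (unadjusted p = 0.0276, edgeR adjusted p = 0.920). Ifnar2 lay at 8.31 ± 0.361 CPM in mock and 7.57 ± 0.488 CPM under stress. The median log2 difference of the 4 genes was -0.00014 for CAA (2 higher, 2 lower) and 0.013 for stress (3 higher, 1 lower).

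Of 17 sensors of nucleic acids and their adaptors, 16 were tested and none passed. For CAA 5 lay higher and 11 lower with a median log2 difference of -0.040, and for stress 6 higher and 10 lower with a median of -0.085. The genes with the smallest p for CAA were Dhx58 (0.58 ± 0.35), a relative of RIG-I, Ifih1 (-0.32 ± 0.25), which codes for the RNA sensor MDA5, and Mb21d1 (0.47 ± 0.38), which codes for the DNA sensor cGAS. For stress they were Tmem173 (-0.57 ± 0.31), the adaptor STING, and Tlr3 (-0.28 ± 0.17), a receptor for double-stranded RNA. These values are log2 fold changes with SE, and edgeR adjusted p ran from 0.661 to 0.920.

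Other interferon-induced genes numbered 42, of which 35 were tested, and none passed. They split 18 higher to 17 lower for CAA (median log2 difference 0.020) and 20 to 15 for stress (0.045). Ifitm1, an antiviral membrane protein, had the smallest p for CAA. Its mean was 0.862 ± 0.342 CPM in the WT and 1.99 ± 0.575 CPM in the CAA libraries, and its 4 CAA libraries (1.47 to 2.70 CPM) lay above its 4 WT libraries (0.547 to 1.34 CPM), a log2 difference of 1.22 ± 0.38 (unadjusted p = 0.00796, edgeR adjusted p = 0.531). Herc6, the mouse ligase for ISG15, had the opposite order, 9.73 ± 2.08 CPM in the WT and 6.42 ± 1.34 CPM in the CAA libraries, its 4 CAA libraries (4.91 to 8.14 CPM) below its 4 WT libraries (8.27 to 12.7 CPM), a log2 difference of -0.61 ± 0.20 (edgeR adjusted p = 0.534). Slfn2 followed at -1.11 ± 0.52. These genes were picked for their small p, and 4.77% of all tested genes separated by genotype, in either direction, as Ifitm1 and Herc6 did. For stress the smallest p belonged to Nmi (-0.56 ± 0.23) and Parp14 (0.51 ± 0.32), both with an edgeR adjusted p of 0.920. Usp18 and Herc6, which act on ISG15 in opposite directions, thus both had lower fitted values in CAA, while the mean of Isg15 itself was 1.08 ± 0.461 CPM in the WT and 0.877 ± 0.111 CPM in the CAA libraries.

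Among 8 restraints of the response 7 were tested, and the eighth, Trex1, had 0 counts. For CAA 6 lay higher and 1 lower (median log2 difference 0.046), and for stress 2 lay higher and 5 lower (-0.064). The genes with the smallest p ran against those counts, Socs3 with stress and Pias1 in CAA. Socs3, a cytokine-induced inhibitor of Janus kinases that also answers to other cytokines, had the smallest p of any pathway gene with stress. It lay at 2.84 ± 1.05 CPM in mock (2.08 to 4.39) and 5.66 ± 0.752 CPM under stress (5.04 to 6.70), and the 4 stressed libraries lay above the 4 mock libraries. Of all tested genes, 1.83% separated by stress in either direction. The log2 fold change of Socs3, 1.02 ± 0.24, did not pass over all genes (unadjusted p = 0.00153, edgeR adjusted p = 0.920). Pias1, a SUMO ligase that restrains cytokine signalling, had means of 62.3 ± 1.28 CPM in the WT and 53.2 ± 1.13 CPM in the CAA libraries, which did not overlap, a log2 difference of -0.23 ± 0.10 (edgeR adjusted p = 0.586). Of all tested genes, 4.77% did not overlap by genotype, and Socs3 and Pias1 were picked for their small p. Ptpn6 and Rnaseh2b were named by the same rule and had log2 fold changes of -0.37 ± 0.28 with stress and 0.07 ± 0.17 in CAA.

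Genes of the interferon gamma and lambda branches served as a neighbouring pathway, with 16 of 22 tested and none passed. For CAA 4 lay higher and 12 lower, a median log2 difference of -0.24, and for stress 9 higher and 7 lower, a median of 0.069. Jak2, the kinase of the gamma receptor, had means of 56.5 ± 8.18 CPM in the WT and 43.6 ± 3.30 CPM in the CAA libraries (a log2 difference of -0.37 ± 0.13, edgeR adjusted p = 0.545). Iigp1 and Il10rb came next for CAA at -0.90 ± 0.43 and -0.34 ± 0.23, and Irgm1 and Ifngr2 led for stress at -0.48 ± 0.20 and -0.25 ± 0.13 on the log2 scale.

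**Figure D4:**
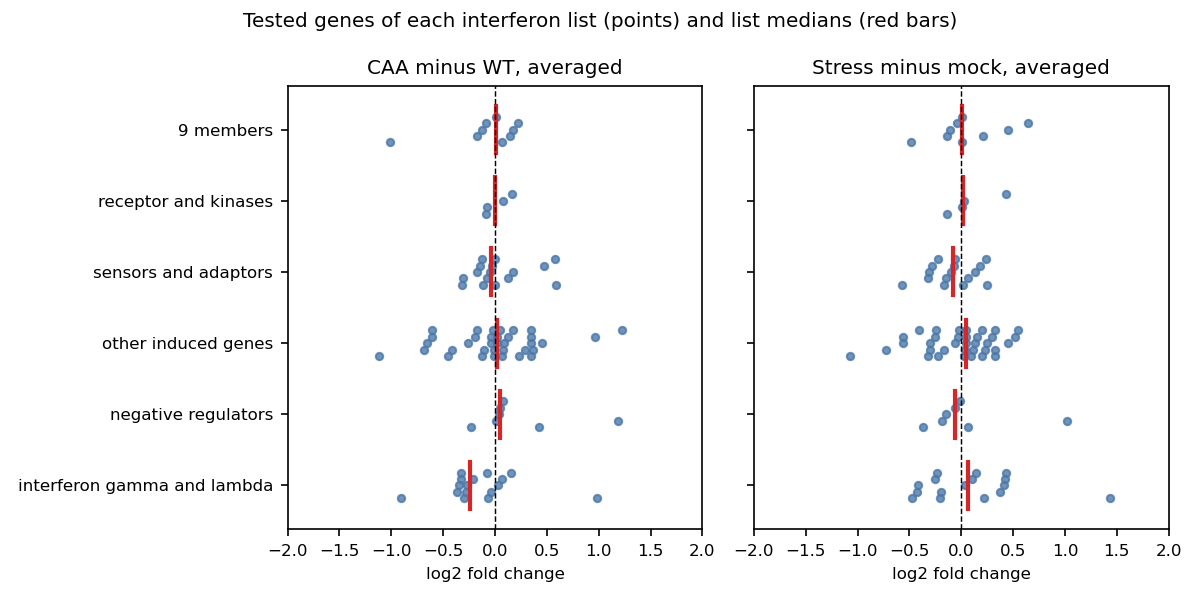
Log2 fold changes of the tested genes of each interferon list (points, 1 per gene) with the list median (red bar), for CAA against WT and for stress against mock. The medians lie between -0.24 and 0.069, and no point passes the adjusted threshold.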

How the data were processed

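RNA was sequenced from 8 mouse brain samples, 2 in each of 4 groups taken from the sample titles and treatment labels. The deposited count table holds raw reads per gene for 54532 genes. The submitters' processing notes name the aligner HISAT2 2.0.5, the counter featureCounts 1.5.0-p3 and the build mm10, and do not say whether strand was used. The authors also deposited FPKM for the same genes and libraries. Here genes were filtered with edgeR's filterByExpr (minimum count 10), normalised by TMM and tested with edgeR 4.0.16 quasi-likelihood fits over all 8 libraries, with Benjamini-Hochberg adjustment over 17182 genes and a threshold of 0.05. Intervals are 95%. DESeq2 1.42.0 and limma 3.58.1 (log2 FPKM) served as alternatives, in R 4.3.3. The script was tested on simulated data. Nothing in the labels says that replicates are separate animals. In WT mock and in CAA stress the replicates differ in sex by their sex-linked counts, so they did not come from the same animal. For WT stress and CAA mock this is not known. The p-values thus speak only to the spread among the samples, which may be technical in part. The 9 genes and the pathway lists were chosen with earlier results of these data known. All 9 genes are reported, and 1 other gene of the pathway is not reported here. From each list come the genes of at least 1 CPM with the smallest p, up to 3 for CAA averaged and 2 for stress averaged. Isg15, Ifit3b and the ligands were added after their values were seen. For each pair the correlation was also computed without the 2 libraries farthest from the median of the first gene.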

Additional observations from a re-analysis of the deposited data

How the results depend on the processing

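Under 18 other settings, 0 of the 9 genes passed the threshold in any comparison run: DESeq2's size factors, no filter, DESeq2 itself, a replicate block, limma on log2(FPKM + 1) and on log2(FPKM + 0.1), a sex term, male libraries alone, omission of the 2 striatum-poor libraries, only the libraries compared (run for the 4 comparisons of 2 groups, with 8 of the 9 genes tested for stress in CAA), and each library left out in turn (8 settings, where a lone library is assumed to vary like the other groups). Deviations from the group mean in libraries of the same replicate number had correlations of -0.27 to 0.14 between groups. With 2 libraries a group, which differ in tissue content and sex, these cannot show whether libraries were paired. With the replicate block 0 of the 9 genes passed. Over all genes DESeq2 called 49 for CAA averaged where edgeR called 2, none of them among the 9. Of 24 member values followed by gene, 11 changed sign in at least 1 setting, as did 19 of the other 39. The 24 are those of both averaged comparisons and named values of Stat2, Oasl2, Irf7 and Usp18 in other comparisons. With 2 libraries a group and 5 to 79 reads for the 4 genes with the fewest reads, depth limits Usp18, Irf7, Oasl2 and Bst2 most. The cause of the shifts below was not tested.

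The median of the 9 log2 effects of stress in WT, -0.16, was 0.00054 in males, 0.0026 without the striatum-poor libraries and -0.16 to 0.026 with 1 library left out. For stress in CAA the median of 0.42 became 0.12 and 0.25 with limma at the larger and smaller pseudocount, 0.10 with the sex term and 0.13 in males, and ranged from -0.031 (without CAA mock 1) to 0.41 with 1 library left out. For CAA under mock, -0.25, it was -0.41 without the striatum-poor libraries and -0.44 to -0.085 with 1 left out. CAA under stress, 0.10, ranged from -0.018 to 0.26. The interaction median of 0.46 became 0.24 with limma on log2(FPKM + 1), 0.28 with the sex term, 0.30 in males and 0.62 without the striatum-poor libraries, and ranged from 0.19 to 0.73. CAA averaged, 0.013, ranged from -0.14 to 0.070.

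Single genes changed sign as follows for CAA averaged. Ifit1 was -0.42 and Oasl2 -0.12 without the striatum-poor libraries, and Irf7 was -0.015 with limma on log2(FPKM + 1) and -0.090 in males. With 1 library left out, values ranged from -0.10 to 0.45 for Bst2, -0.040 to 0.070 for Ifi27, -0.49 to 0.47 for Ifit1, -0.24 to 0.11 for Ifit3, -0.28 to 0.30 for Irf7 and -0.14 to 0.40 for Oasl2. For stress averaged, Bst2 was -0.0017 with DESeq2, -0.026 with the replicate block, -0.012 and -0.024 with limma at the larger and smaller pseudocount, -0.033 with the sex term and -0.20 in males. Without the striatum-poor libraries Ifit3 was 0.0036 and Irf9 0.017, and in males Usp18 was 0.096. With 1 library left out, values ranged from -0.33 to 0.23 for Bst2, -0.054 to 0.057 for Ifi27, -0.31 to 0.042 for Ifit3, -0.095 to 0.020 for Irf9 and -0.38 to 0.11 for Usp18.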
